A study of Capitella teleta with 10 samples.

Results

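Transcripts whose level differed between the stage 5 larva and the stage 4tt larva of the marine annelid *Capitella teleta* were collected with a simple rule of separation. A transcript model of the annotation, here called a feature, was taken as a member when its 2 stage 5 libraries did not overlap its 2 stage 4tt libraries on the log2(value + 1) scale. Features had to exceed a normalized read count of 2 in at least 2 of the 10 libraries, which left 35526 of 41221 features (86.2%). Of these, 14048 were members (39.5%), 7705 of them higher at stage 5 and 6343 lower at stage 5, and the libraries of the other 21478 features overlapped. The remainder of the results describes what the members did at stage 7 and at the gastrula, whose libraries the separation did not use.

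Pooled whole embryos and larvae, untreated and not genetically modified, were profiled by bulk RNA-seq at 5 points of development with 2 libraries each, namely 64-cell embryos, gastrulae and animals of stages 4tt, 5 and 7. The labels describe the stage 4tt samples as embryos, whereas the study treats stage 4tt as a larval stage, and the study's name is used here. The study's reporting form describes the duplicates as biological replicates, but no label says which brood a library came from, so p-values measure the spread between these libraries, part of which may be technical. In whole animals, fewer cells of a type and less RNA per cell cannot be told apart.

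The larva of *C. teleta* does not feed. It develops inside the brood tube of its mother, swims with bands of cilia, and forms its trunk segments, nerve cord and bristles before it settles and metamorphoses. In animals generally, the early embryo carries RNA stored in the egg, which is cleared while the genome of the embryo takes over, so the abundance of a transcript along development reflects both the loss of old RNA and the production of new RNA.

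The identifiers of the features carry no gene names, and 0 of them matched the 31977 genes of the reference table, so gene functions, the labelled stages' marker genes and sequences are not described. The only identifier with a name, Capitella_post1, after a posterior Hox gene, had normalized counts of 39.3 and 42.1 in the stage 7 libraries and was listed at 0 in the 8 libraries of earlier stages. It was tied at stages 5 and 4tt and is not a member.

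Normalized counts summed to between 32883200 and 55846793 per library. Across features, replicates correlated at 0.952 for stage 5 and at 0.946 for stage 4tt on the log2(value + 1) scale. Replicate 2 of stage 5 resembled replicate 2 of stage 4tt more closely (0.960) than it resembled replicate 1 of its own stage, and the other 3 pairs of a stage 5 and a stage 4tt library had correlations of 0.930 to 0.939. The 100 most abundant features held 38.9% and 30.2% of the normalized counts in replicates 1 and 2 of stage 5, and 36.3% and 28.7% in replicates 1 and 2 of stage 4tt. The part of this difference between replicates in the membership was not tested.

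Stage 5 and stage 4tt were the neighbouring stages with the smallest share of separated features. Libraries did not overlap for 71.0% of features between the gastrula and the 64-cell stage, for 56.6% between stage 4tt and the gastrula, for 39.5% between stage 5 and stage 4tt, and for 51.8% between stage 7 and stage 5. The members higher at stage 5 made up 21.7% of the features tested and the members lower at stage 5 made up 17.9%. These shares are set by the rule and carry no test.

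Most members were separated by a small distance. The gap between the nearest stage 5 and stage 4tt libraries had a median of 0.37 log2 units among members higher at stage 5, with a maximum of 7.64, and it exceeded 1 in 1357 of them and 2 in 313. Among members lower at stage 5 the median gap was 0.28 with a maximum of 7.83, and it exceeded 1 in 832 and 2 in 188. At the border of the rule, 1346 features higher at stage 5 were separated by at most 0.1, with a median log2 difference between the stage means of 0.35, while 2248 features with a higher stage 5 mean overlapped by at most 0.1, with a median difference of 0.38. On the other side, 1324 features lower at stage 5 were separated by at most 0.1 (median difference -0.28), and 2283 overlapped by at most 0.1 (median difference -0.38). Features just inside and just outside the rule therefore had stage differences of like size.

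The 2 directions drew on transcripts of different abundance. Members higher at stage 5 had median normalized counts of 32.8 in 64-cell embryos, 31.9 in gastrulae, 56.2 in stage 4tt larvae, 115 in stage 5 larvae and 156 in stage 7 larvae. Members lower at stage 5 had medians of 243, 429, 406, 251 and 218 at the same stages, and all features tested had medians of 45.4, 50.0, 62.9, 71.5 and 83.3. The plot of medians by library shows that the 2 libraries of each stage lay close together for both directions, and that the main change in members higher at stage 5 came after the gastrula. At stages 5 and 4tt the rule itself favours features whose replicates lie close together.

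**Figure D1:**
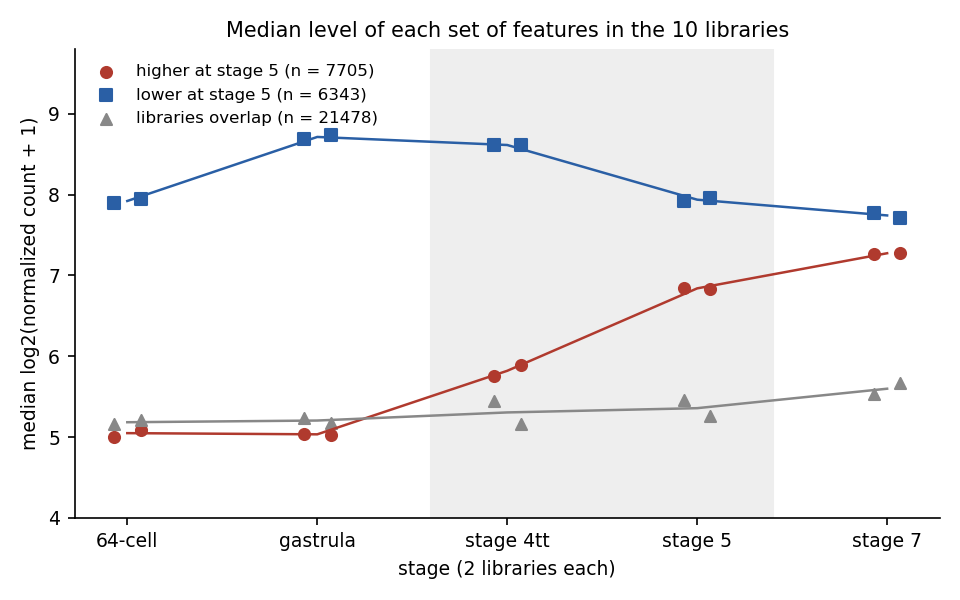
Median log2(normalized count + 1) of members higher at stage 5 (circles), members lower at stage 5 (squares) and features whose libraries overlap (triangles) in each of the 10 libraries, with stages from early to late on the horizontal axis, lines through the means of the 2 libraries and the stages used by the rule shaded. Members higher at stage 5 had a median near 5 in the 64-cell and gastrula libraries and 7.27 and 7.28 in the stage 7 libraries, while members lower at stage 5 had their highest medians, 8.69 and 8.74, in the gastrula libraries.

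The same contrast appears in the share of the normalized counts that each set held. Members higher at stage 5 held 9.50% and 9.79% of the counts in the 64-cell libraries, 7.75% and 7.76% in the gastrula libraries, 9.91% and 11.6% in stage 4tt larvae, 15.3% and 16.9% in stage 5 larvae, and 21.2% and 20.4% in stage 7 larvae. Members lower at stage 5 held 27.4% and 28.9%, 29.8% and 32.6%, 23.7% and 27.7%, 17.1% and 20.4%, and 17.1% and 16.6% in the libraries of the same 5 stages. In both sets the stage 7 shares lay at or past the stage 5 end of the range, and the gastrula shares lay past the stage 4tt end. The balance of directions changed with abundance. Among features with a mean normalized count of 10 to 100 over all libraries, 26.5% were higher and 12.5% lower at stage 5, and among those with a mean of 1000 to 10000, 16.9% were higher and 31.9% lower.

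A fit of the stages themselves used the same libraries as the rule, so its counts are a description. A linear model with limma, fitted to all 10 libraries where a call needed an absolute log2 fold change above 1 together with a Benjamini-Hochberg adjusted p under 0.05, called 116 features higher at stage 5 than at stage 4tt (0.327% of all features tested) and 83 lower (0.234%). All of them were members, making up 1.51% of the members higher and 1.31% of the members lower at stage 5. The count changed with the libraries in the fit, and the cause was not tested. With only the 4 libraries of stages 5 and 4tt, limma called 0 features in either direction, although 1493 higher and 879 lower features had an unadjusted p under 0.05. Without replicate 1 of stage 5 it called 1 higher and 7 lower, and without replicate 2 of stage 4tt it called 175 higher and 243 lower.

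Stage 7 was then compared with the gastrula, since the separation used the libraries of neither stage. The span from the gastrula to stage 7 contains the step from stage 4tt to stage 5. A member that only kept its change of that step can therefore be called in this contrast. Stage 7 and the gastrula count among the 10 libraries of the filter on low values. Without that filter 44.7% of members higher at stage 5 were called higher, against 17.4% of all features. Members higher at stage 5 were mostly higher at stage 7 than at the gastrula, and members lower at stage 5 were mostly lower. Of the members higher at stage 5, the limma fit called 3509 (45.5%) higher at stage 7, against 18.9% of all features tested, and 136 (1.77%) lower, against 12.2% of all features. Of the members lower at stage 5, it called 2350 (37.0%) lower and 361 (5.69%) higher at stage 7. Features whose stage 5 and stage 4tt libraries overlapped were called higher in 13.2% and lower in 8.59%.

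The size of the change followed the same order. The median log2 fold change of stage 7 against the gastrula was 1.39 for members higher at stage 5 and -0.85 for members lower at stage 5, beside 0.11 for all features tested and 0.05 for features with overlap. Without features listed at 0 in both libraries of stage 7 or of the gastrula, these medians were 1.24, -0.88, 0.05 and -0.01. Counted by separation instead of by the test, the stage 7 libraries lay above the gastrula libraries in 67.2% of members higher at stage 5, against 37.3% of all features, and below them in 62.9% of members lower at stage 5, against 31.5%.

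**Figure D2:**
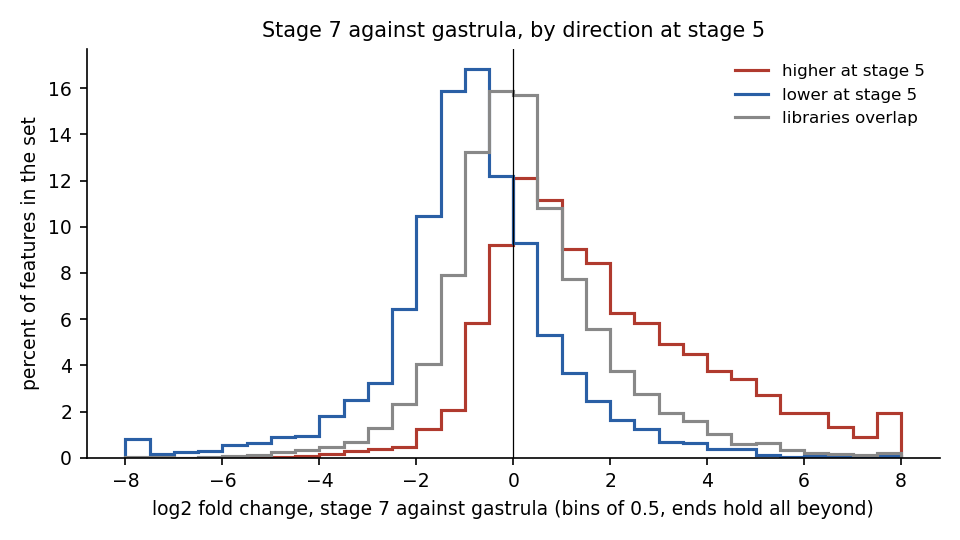
Distribution of the log2 fold change of stage 7 against the gastrula (horizontal axis, bins of 0.5 with all values beyond 8 placed in the end bins) as a percent of each set of features (vertical axis). The curve of members higher at stage 5 extends to the right of that of features whose libraries overlap (medians 1.39 and 0.05), and the curve of members lower at stage 5 lies to its left (median -0.85).

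Because the rule favours features with a small spread between replicates, the members also had a small spread in the fit. Between the 2 libraries of stage 5, the median absolute log2 difference was 0.29 in members higher, 0.24 in members lower and 0.64 in features with overlap, and at stage 4tt it was 0.34, 0.26 and 0.66. A fit of the 4 libraries of stage 7 and the gastrula alone, which does not use that spread, called 41.8% of the members higher at stage 5 higher at stage 7, against 17.9% of all features. It called 35.1% of the members lower at stage 5 lower at stage 7, against 11.7% of all features.

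The shares held within classes of abundance as well. Among features with a mean of 100 to 1000, 60.7% of the members higher at stage 5 were called higher at stage 7 than at the gastrula, against 26.9% of all features of that class. Among features with a mean of 1000 to 10000, 56.6% of the members lower at stage 5 were called lower at stage 7, against 28.3% of all features of that class. The lowest class, with a mean under 10, gave 21.9% of the members higher at stage 5 called higher and 5.57% of the members lower at stage 5 called lower, against 11.6% and 2.44% of all features of that class. Members lower at stage 5 in that class were called higher more often than lower, in 8.08%.

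The 2 directions differed in how the share called at stage 7 against the gastrula tracked the size of the gap. Of the members higher at stage 5, 27.1% were called higher at stage 7 than at the gastrula when the gap was at most 0.1, 40.1% at 0.1 to 0.5, 55.4% at 0.5 to 1 and 64.4% above 1. Of the members lower at stage 5, 27.9%, 40.1%, 39.1% and 37.4% were called lower in the same classes. The shares thus climbed with the gap among members higher at stage 5, whereas they stayed between 37.4% and 40.1% in the upper 3 classes of members lower at stage 5. The median log2 fold change in the same classes was 0.50, 1.02, 2.13 and 3.48 for members higher. For members lower it was -0.62, -0.90, -1.09 and -1.12. The difference between the directions was not tested. Of the features that limma had called between stage 5 and stage 4tt, 109 of the 116 higher (94.0%) were called higher at stage 7 and 68 of the 83 lower (81.9%) were called lower, with 0 called the opposite way in either set. The call at stage 5 and the call at stage 7 come from the same fit and share its estimate of the spread.

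**Figure D3:**
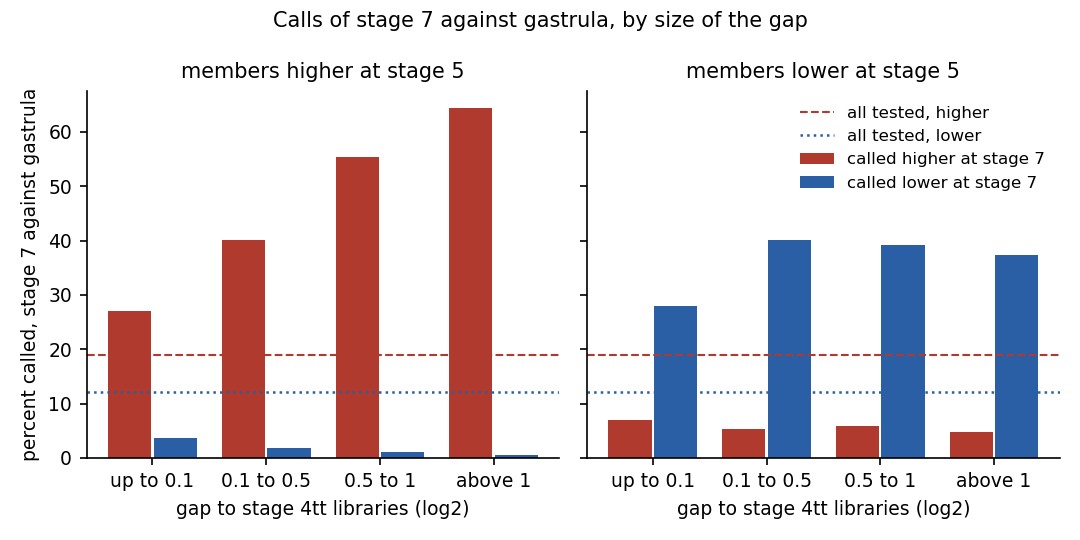
Percent of members called higher (red) and lower (blue) at stage 7 than at the gastrula by limma, by the log2 gap between the nearest stage 5 and stage 4tt libraries, for members higher at stage 5 (left) and lower at stage 5 (right). Dashed and dotted lines mark the shares of all features tested, 18.9% higher and 12.2% lower, and bars of the direction at stage 5 lie above their line in every class.

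Where the stage 7 libraries lay was then described for each member. Among members higher at stage 5, both stage 7 libraries exceeded both stage 5 libraries in 3032 (39.4%), overlapped only the stage 5 libraries in 1977 (25.7%), overlapped only the stage 4tt libraries in 1014 (13.2%), and lay below both stage 4tt libraries in 421 (5.46%). Among members lower at stage 5, stage 7 lay below both stage 5 libraries in 2420 (38.2%), overlapped only stage 5 in 1732 (27.3%), overlapped only stage 4tt in 777 (12.2%), and lay above both stage 4tt libraries in 555 (8.75%). Over all features tested, the stage 7 libraries lay above all 4 libraries of stages 5 and 4tt in 22.9% and below all 4 in 16.2%. Stage 7 thus lay beyond stage 5 more often than at or past the stage 4tt level, which held for 18.6% of members higher and 21.0% of members lower at stage 5. This order depended on the gap and on a single library. Among members lower at stage 5 with a gap above 1, stage 7 lay beyond stage 5 in 21.0% and at or past stage 4tt in 24.6%. Without replicate 2 of stage 5, the shares were 31.3% beyond stage 5 and 40.5% at or past stage 4tt for members higher, and 30.2% and 42.7% for members lower.

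The gastrula was described in the same way. The gastrula libraries of members higher at stage 5 lay below both stage 4tt libraries in 3270 (42.4%), overlapped only the stage 4tt libraries in 1739 (22.6%), and exceeded both stage 5 libraries in 803 (10.4%). For members lower at stage 5, the gastrula lay above both stage 4tt libraries in 2681 (42.3%), overlapped only stage 4tt in 1203 (19.0%), and lay below both stage 5 libraries in 801 (12.6%). Of all features, 23.2% had gastrula libraries above all 4 libraries of stages 5 and 4tt and 22.0% had them below. For members lower, the gastrula lay beyond stage 4tt in 33.5% and at or past stage 5 in 32.7% with totals made equal. With a gap above 1 these shares were 28.8% and 27.4%. Without replicate 1 of stage 4tt they were 39.24% and 39.21%, and for members higher 37.98% and 37.62%. The positions at stage 7 share the stage 5 libraries with the rule, and those at the gastrula share the stage 4tt libraries, so they are descriptions and not tests.

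**Figure D4:**
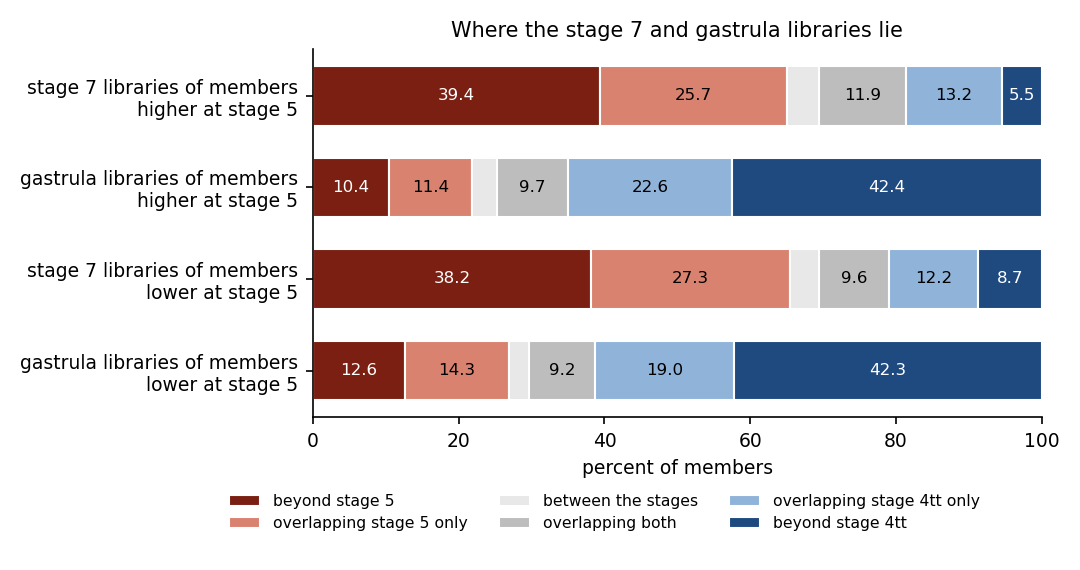
Percent of members (horizontal axis) by where both stage 7 libraries or both gastrula libraries lay relative to the stage 5 and stage 4tt libraries, for members higher (upper bars) and lower (lower bars) at stage 5. Beyond stage 5 means past the stage 5 libraries in the direction of the member's change, which held for 39.4% and 38.2% of members at stage 7, and beyond stage 4tt means past the stage 4tt libraries on the other side, which held for 42.4% and 42.3% at the gastrula.

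Taking these positions jointly, 1437 members higher at stage 5 (18.7%, or 4.04% of all features tested) were higher without overlap at each step from the gastrula through stages 4tt and 5 to stage 7, and 353 (4.58%, or 0.994% of all features) did so from the 64-cell stage on. Among members lower at stage 5, 1172 (18.5%, or 3.30% of all features) were lower at each step from the gastrula and 217 (3.42%, or 0.611%) from the 64-cell stage. For 256 members higher at stage 5 (3.32%, or 0.721% of all features), the gastrula and stage 7 libraries all lay below the stage 4tt libraries. The step from stage 4tt to stage 5 is set by the rule, so these counts are descriptions.

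Stages 5 and 4tt were less often an extreme of development than the other 3 stages. The stage 5 libraries lay above all 8 other libraries in 973 features, 12.6% of the members higher at stage 5 and 2.74% of all features tested, and below all 8 in 571, 9.00% of the members lower at stage 5 and 1.61% of all features. The stage 4tt libraries lay above all 8 others in 2.32% of the features tested and below them in 1.73%. For the other stages the shares above were 22.1% at the 64-cell stage, 11.7% at the gastrula and 13.1% at stage 7.

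The step before the gastrula gave a weaker separation of the directions. Of members higher at stage 5, 21.1% were called higher and 24.4% lower at the gastrula than at the 64-cell stage, beside 22.3% and 21.9% of all features. Members lower at stage 5 were called higher at the gastrula in 33.5% and lower in 21.0%. Taken whole, those higher at stage 5 were close to the background in this early step, and members lower at stage 5 exceeded it in features called higher at the gastrula. The widely separated members higher at stage 5 were not close to it. Of members higher at stage 5 with a gap above 1, 8.33% were called higher and 30.4% lower at the gastrula, and with a gap above 2 the shares were 5.75% and 31.6%. In 393 of these 1357 and 127 of these 313 members, both libraries of the gastrula or the 64-cell stage were at 0, against 4861 of all 35526 features. Without such features the median log2 fold change was -0.86 and -1.48, beside 0.09 for all features. Of the 116 features that limma called higher at stage 5, 9.48% were called higher and 54.3% lower at the gastrula. Of the 83 that it called lower at stage 5, 51.8% were called higher and 20.5% lower at the gastrula. Of members lower at stage 5 with a gap above 1, 23.7% were called higher and 26.7% lower.

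The members with the widest gaps were described in every library. CTELG00000029588.1 had normalized counts of 1636 and 2402 in the stage 5 libraries, against 5.61 and 7.19 in the stage 4tt libraries, the widest gap of any member higher at stage 5 (log2 fold change 8.08 ± 0.41, SE). It had 7322 and 5059 in the stage 7 libraries, against 0 and 0 in the gastrula libraries, and 13.6 and 10.1 in the 64-cell libraries. The stage 7 libraries thus exceeded all others, and the adjusted p from limma for stage 7 against the gastrula was 1.11e-06.

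The other members of this set came from genes with more than 1 model. CTELG00000003746.1 had 119 and 130.1 at stage 5, against 0 and 0 at stage 4tt, and its stage 7 libraries lay far apart at 356 and 21.3. The other model of its gene, CTELG00000003746.2, was also a member higher at stage 5, with 410.2 and 686 at stage 5 and 97.9 and 290.2 at stage 4tt, so the gene as a sum was separated in the same direction. CTELG00000007954.1 was listed at 0 in both stage 5 libraries, against 227 and 342 in the stage 4tt libraries, and it had 36.8 and 123 at stage 7 and 181 and 538 at the gastrula.

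Its partner was separated in the opposite direction. CTELG00000007954.2 had 576 and 540 at stage 5, against 186 and 216 at stage 4tt, and the sum of both models was 576 and 540 at stage 5, against 412 and 558 at stage 4tt, which overlap. CTELG00000019938.2 was likewise listed at 0 in both stage 5 libraries, against 285 and 88.8 at stage 4tt, with 0 and 62.6 at stage 7. For this gene the sum over models remained lower at stage 5, with 364 and 371 at stage 5, against 538 and 708 at stage 4tt.

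Genes with several models were common among members that were present in a stage and listed at 0 in the other. Of the features tested, 16.9% belonged to genes with at least 2 tested models, as did 15.5% of the members higher and 15.7% of the members lower at stage 5. Of the 47 members higher at stage 5 with a mean of at least 10 at stage 5 and 0 in both stage 4tt libraries, 28 (59.6%) belonged to such genes. The gene sum was separated in the same direction in 13 of the 28, overlapped in 13 and was separated in the opposite direction in 2. Of the 70 members lower at stage 5 with a mean of at least 10 at stage 4tt and 0 in both stage 5 libraries, 42 (60.0%) belonged to such genes, and the gene sum was separated in the same direction in 10 of the 42, overlapped in 23 and was separated in the opposite direction in 9. Reads that fit several models are divided among them by the pseudo-alignment, and its part in these zeros was not tested. Over all 2639 genes with at least 2 tested models, 198 had a member in each direction. The gene sums of these 198 overlapped in 86, were higher at stage 5 in 49 and lower in 63.

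The largest changes between stage 7 and the gastrula were found in members with steep courses. Both models of the gene CTELG00000002039 were members higher at stage 5. CTELG00000002039.1 had 119010 and 101560 in the stage 7 libraries, against 0 and 1.25 in the gastrula libraries, with 46105 and 42657 in stage 5 libraries and 1055 and 2655 in stage 4tt libraries (log2 fold change of stage 7 against the gastrula 16.16 ± 0.48, SE, limma adjusted p = 1.11e-06). CTELG00000002039.2 had 44270 and 36299 at stage 7, against 0 and 3.24 at the gastrula, with 4864 and 8964 at stage 5 and 83.7 and 329 at stage 4tt (14.25 ± 0.97, SE, limma adjusted p = 1.38e-05). Both models were higher at every step from the gastrula on, without overlap between neighbouring stages.

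The reverse course was seen in transcripts that were abundant in the 64-cell embryo. CTELG00000001773.1 had 231590 and 214879 in the 64-cell libraries, 11752 and 3126 at the gastrula, 4470 and 48.3 in stage 4tt libraries, and 13.3 and 8.17 in stage 5 libraries, while stage 7 libraries listed it at 0 (limma adjusted p for stage 7 against the gastrula 0.000352). CTELG00000033505.1 had 23107 and 24229, 4045 and 3059, 584 and 64.6, 10.8 and 2.70, and 0 and 0 in the libraries of the same 5 stages (limma adjusted p = 2.25e-05). In both, replicate 1 of stage 4tt held far more of the transcript than replicate 2.

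Members with an extreme at stage 5 completed the description. CTELG00000005979.1 had 6147 and 5323 at stage 5, against 795 and 1289 at stage 4tt, while it had 1168 and 1458 at stage 7, against 10.98 and 21.2 at the gastrula, and 553 and 512 at the 64-cell stage. Its stage 7 libraries overlapped those of stage 4tt. The log2 fold change of stage 5 against stage 4tt was 2.50 ± 0.33 (SE, limma adjusted p = 0.0229). The feature was chosen by its stage 5 libraries, so that p-value is a description and not a test. The call was kept under both other scalings (limma adjusted p = 0.0311 and 0.033). It was lost without both 64-cell libraries (0.0766) and with only the 4 libraries of stages 5 and 4tt (0.246). It was also lost without replicate 1 of stage 4tt, either replicate of stage 5 or either replicate of stage 7. Over the fits that each left out a single library, the log2 fold change ran from 2.15 to 2.85. The transcript was called higher at stage 7 than at the gastrula (log2 fold change 6.32 ± 0.33, SE, limma adjusted p = 4.85e-06), although its stage 7 libraries lay below its stage 5 libraries.

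The other peak was of low abundance. CTELG00000012832.1 had 25.3 and 25.1 at stage 5, against 4.68 and 6.45 in stage 4tt libraries, and it had 2.86 and 0 in stage 7 libraries, against 3.67 and 0 in gastrula libraries. Its stage 7 and gastrula libraries overlapped. The change between stages 5 and 4tt was not called (log2 fold change 2.01 ± 1.03, SE, limma adjusted p = 0.469). In the opposite direction, CTELG00000021467.2 was listed at 0 in both stage 5 libraries, against 181 and 76.1 at stage 4tt, and it had 64.5 and 244 at stage 7, against 236 and 226 at the gastrula. A partner of this model, CTELG00000021467.3, had 261 and 209.8 at stage 5, against 60.1 and 70.3 at stage 4tt, and the sums over the 3 models, 517 and 557 at stage 5, against 522 and 487 at stage 4tt, overlapped. Among the named members, limma called CTELG00000029588.1, CTELG00000002039.1, CTELG00000005979.1, CTELG00000007954.1 and CTELG00000021467.2 between stages 5 and 4tt. Besides CTELG00000012832.1, it did not call CTELG00000003746.1 (limma adjusted p = 0.0529), CTELG00000019938.2 (0.0972), CTELG00000002039.2 (0.0581), CTELG00000001773.1 (0.206) or CTELG00000033505.1 (0.0562). The members were chosen from the libraries of these stages, so the calls are descriptions. With only the 4 libraries of stages 5 and 4tt, none of the named members was called. CTELG00000007954.1 and CTELG00000021467.2 also lost the call without replicate 1 of stage 4tt or replicate 1 of stage 5.

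**Figure D5:**
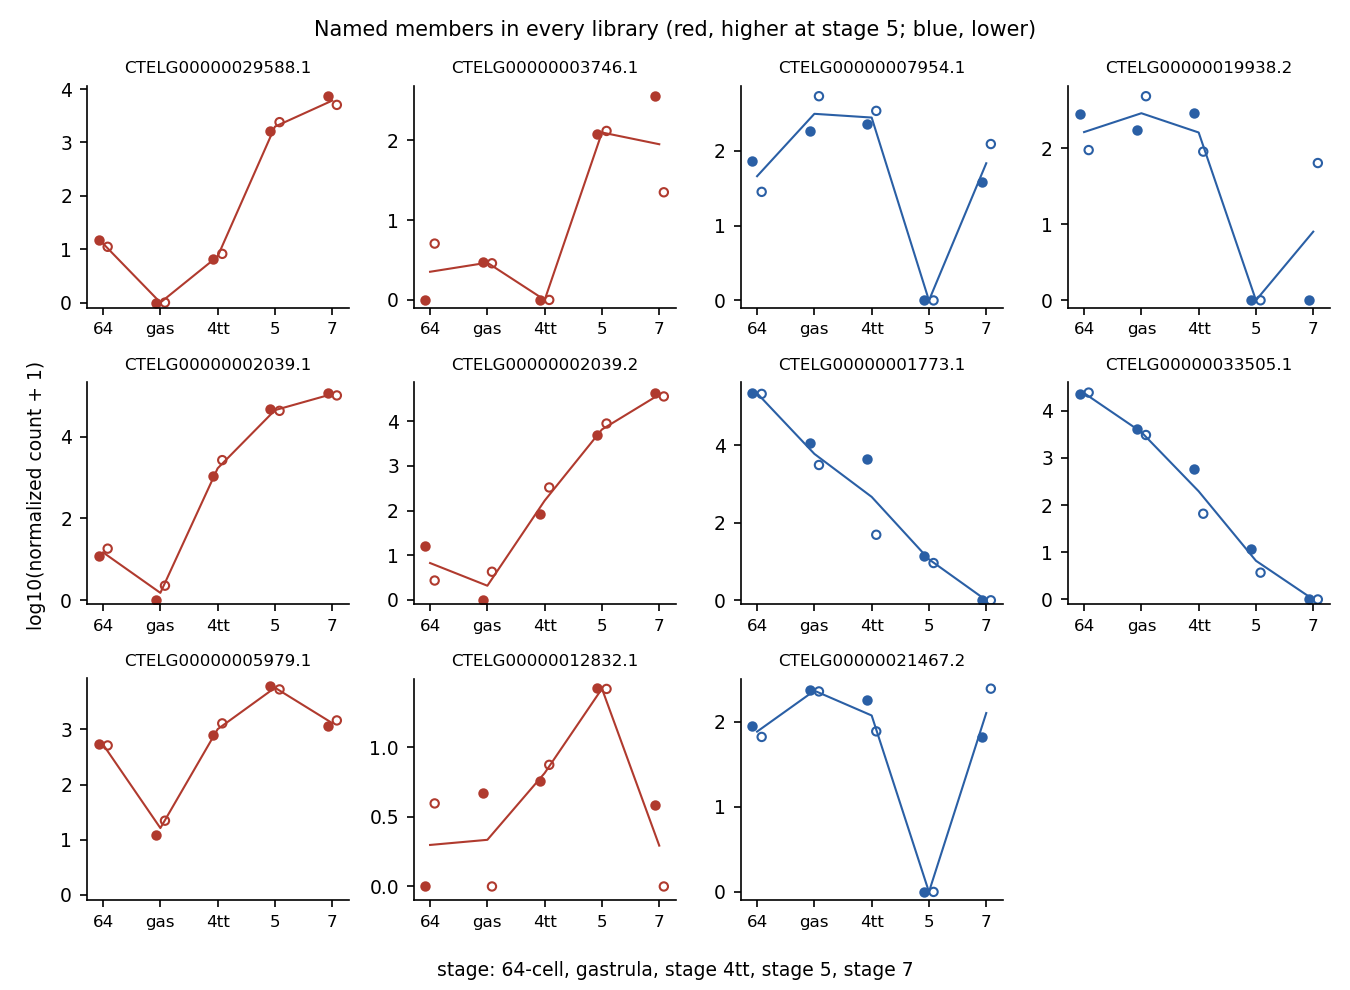
Values of the 11 named members in the 10 libraries as log10(normalized count + 1), with stages from early to late on the horizontal axis, filled circles for replicate 1, open circles for replicate 2 and lines through the mean of the 2 log values. CTELG00000002039.1 and CTELG00000002039.2 had their highest values at stage 7, CTELG00000001773.1 and CTELG00000033505.1 had theirs at the 64-cell stage, and CTELG00000007954.1, CTELG00000019938.2 and CTELG00000021467.2 were listed at 0 in both stage 5 libraries.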

How the data were processed

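Total RNA of snap-frozen embryos and larvae was isolated. Strand-specific mRNA libraries made from it were sequenced, 2 at each of 5 stages. The authors trimmed adaptors with trimmomatic, pseudo-aligned the reads to filtered gene models with kallisto (v0.46.2) and normalized counts with DESeq2 (v1.30.1), versions per the submitters' processing notes. The models come from the authors' own annotation of the assembly held by Ensembl Metazoa, and the growth conditions in the labels are those of another annelid. The signal deposited by the authors is a normalized read count per transcript model, not a raw count. Whole reads could not be recovered, so no count test was run and no depth in reads was computed for single libraries.

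Columns were matched to samples by name, with 0 columns of other samples. Features above 2 in at least 2 libraries were transformed as log2(value + 1), which understates the change of low features. Ties counted as overlap. The limma package (v3.58.1, on R v4.3.3) fitted a mean per stage to the 10 libraries, with a mean-variance trend and Benjamini-Hochberg adjustment of p-values over all features tested. The fit was also run on simulated normal values with known fold changes. All stages otherwise had equal means there, unlike in these data, so that run is no check of the calls reported here. Counts and plots were made with numpy (v2.4.6), pandas (v2.3.3) and matplotlib (v3.10.9) on Python v3.11.15.

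Named features were at most 2 per direction: the widest gap between stages 5 and 4tt, the largest called change of stage 7 against the gastrula in the direction of stage 5, and the widest gap of stage 5 to all 8 other libraries, each where the higher stage averaged at least 10, plus Capitella_post1. Partner models were chosen after their values were seen. The rule, the members and the lists of alternatives were chosen with earlier results of these data known. Alternatives were other scalings, filters, pseudocounts, gaps, sums over gene identifiers, array weights, a replicate block, fits of fewer stages and leaving out each library.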

Additional observations from a re-analysis of the deposited data

How the results depend on the processing

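The shares of members called at stage 7 against the gastrula kept their order against all features under every alternative run. The order of the 2 stage 7 positions did not hold under every alternative. The count called higher at stage 5 against stage 4tt (116) was 73 at a pseudocount of 0.1, 208 at a pseudocount of 5, 65 with array weights, 188 for sums over gene identifiers and 0 when only the 4 libraries of both stages entered the fit (1493 at an unadjusted p under 0.05). The count called lower (83) was 44 with array weights and 0 with those 4 libraries alone (879 at an unadjusted p under 0.05). Without both 64-cell libraries, an alternative chosen after seeing the data, the counts were 26 and 30. The cause was not tested.

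With totals made equal, 1.13% of members higher at stage 5 were called lower at stage 7, against 7.94% of all features, and 88.4% of members higher and 77.7% of members lower at stage 5 remained members. Requiring a gap above 0.5 left 3076 members higher and 2000 lower, and the gastrula then lay at or past the stage 5 side in 14.1% of those higher. A gap above 1 left 1357 and 832. Of those higher, stage 7 then lay at or past the stage 4tt side in 10.6% and the gastrula at or past the stage 5 side in 10.9%. Of those lower, stage 7 lay beyond stage 5 in 21.0% and at or past the stage 4tt side in 24.6%.

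Leaving out each library in turn gave 1 to 175 features called higher and 7 to 243 called lower at stage 5, and 11747 to 13386 members higher and 10453 to 11657 members lower, since fewer libraries overlap less often. Members higher at stage 5 were called higher at stage 7 in 31.1% to 46.8% and lower in 1.08% to 4.28%. Members lower at stage 5 were called higher in 3.30% to 9.16% and lower in 25.5% to 37.7%. For members higher, stage 7 lay beyond stage 5 in 31.3% to 51.1% and at or past stage 4tt in 16.5% to 40.5%, and the gastrula lay beyond stage 4tt in 34.0% to 49.6% and at or past stage 5 in 18.8% to 37.6%. For members lower, these shares were 30.2% to 47.9%, 17.1% to 42.7%, 37.1% to 51.8% and 22.8% to 39.2%. The highest shares at or past stage 4tt, 40.5% and 42.7%, came without replicate 2 of stage 5 and exceeded the shares beyond stage 5 there, 31.3% and 30.2%. A lone library was assumed to vary like the others.

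The labels give the stages the same replicate numbers but no shared brood. Deviations from the stage means correlated at 0.22 between stages 5 and 4tt and at most at 0.11 between other stages. With the replicate number as a block, 125 features were called higher and 116 lower at stage 5, and the shares called at stage 7 were 45.7% and 1.77% for members higher and 5.63% and 37.0% for members lower.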
